A study of Mus musculus with 6 samples.

Results

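The genes described here are the genes of autophagy measured in MIN6 cells, a mouse insulinoma-derived line of pancreatic β cells. They were taken as every gene whose symbol begins with Atg and a digit (18 genes) together with 23 further genes named for their place in the pathway, which gave 41 of the 16640 genes in the deposited tables. All 41 passed the filter on low counts that left 12516 genes for testing. RNA was sequenced from 3 libraries of control cells and 3 libraries of *Thada*-activated cells on the BGISEQ-500 platform. Cells of the activated line received dCas9-VP64 by lentivirus and were selected with puromycin. A further lentivirus then brought a single guide RNA with MS2-P65-HSF1, followed by selection with G418. Together these form the synergistic activation mediator (SAM), which brings transcriptional activators to the gene that the guide points to. The guide of the activated line was for *Thada*. Control cells received lentiviruses for dCas9 and a non-targeting guide, and the paper does not give their activators or drug selection separately. Each condition is thus 1 line, and the 3 libraries of a condition share it. Library totals were 17272834, 17166511 and 17689611 counts in control replicates 1, 2 and 3 and 17727004, 17385036 and 17224631 counts in the activated ones. The labels do not say whether libraries of a line came from separate cultures, so p-values measure only the spread between these libraries, which may be technical.

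Autophagy encloses part of the cytoplasm in a double membrane, the autophagosome, and delivers it to the lysosome. The ULK kinase complex starts the process, the class III phosphatidylinositol 3-kinase marks the membrane with PI3P, ATG9 vesicles and the lipid transfer protein ATG2 supply lipid, and enzymes that act like ubiquitin ligases attach ATG8 proteins (LC3 and GABARAP) to the membrane, where cargo receptors bind them. In pancreatic β cells the pathway is known for the turnover of mitochondria, endoplasmic reticulum and insulin granules.

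Defining markers of the β cell were abundant, with *Ins2* the most abundant of the 16 at 5.65 to 10.2% of the counts of a library, but the glucose transporter gene *Slc2a2* was at most 0.523 CPM. The 16 β cell markers summed to 123472, 113737 and 142169 CPM in control and 119855, 117823 and 130871 CPM in activated replicates 1, 2 and 3, with *Ins2* the largest part in each library. For replicate 3 against replicates 1 and 2, the comparison described below, *Ins1* and *Ins2* were higher by 0.82 and 0.57 on the log2 scale, but 11 of the 15 β cell markers tested had a negative difference, among them *Pdx1* (-1.03), *Slc30a8* (-0.96), *Nkx2-2* (-0.91), *Pcsk1* (-0.81) and *Mafa* (-0.61). Of other pancreatic cells, *Sst* of the delta cell ranged from 59.2 to 154 CPM and *Krt7* of the duct cell from 71.6 to 184 CPM. *Cela2a*, *Adgre1*, *Cdh5* and *Kdr* were at or under the floor of 3 counts in every library (from 0.169 to 0.175 CPM). *Cd68* of the leukocyte list was at 0.396 to 1.24 CPM and differed by -1.001 for replicate 3 (adjusted p = 0.033 in edgeR). *Pecam1* of the endothelial list, not tested, was at 1.24 and 1.10 CPM in control and activated replicate 3. In the other libraries it was at 0.338 to 0.460 CPM. Of the alpha cell, *Gcg* differed by -0.34 (adjusted p = 0.0165 in edgeR) and *Irx2* by 0.49 (adjusted p = 0.026) for replicate 3. The 3 delta cell markers summed to 159, 134 and 74.7 CPM in control and 149.7, 137 and 70.2 CPM in activated libraries, and the 4 of 5 duct cell markers in the table to 161, 167 and 82.2 CPM in control and 196, 197 and 109 CPM in activated libraries. Both *Sst* and *Krt7* were lower in replicate 3 of each condition, whereas *Rbp4* of the delta list (0.64) and *Ppy* (0.70) were higher there. Of the 2 stromal markers tested, *Col1a1* differed by 1.28 and *Col1a2* by -0.21 (adjusted p = 0.503). The part of these markers in the differences of the autophagy genes was not tested. In bulk RNA, fewer cells that express a gene and less RNA per cell cannot be told apart.

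*Thada*, the gene targeted, was at 27.7, 28.95 and 16.96 CPM across the controls and 57.4, 56.2 and 50.2 CPM across the activated libraries, in the order of replicates 1, 2 and 3 as in every such list here. CPM are counts scaled to a common library total. Every activated library lay above every control library (p = 0.1 by a two-sided exact permutation test, which cannot go lower with 3 against 3). The log2 difference was 1.13 (SE 0.22, adjusted p = 1) with the condition as the only term and 1.15 (SE 0.10, adjusted p = 0.000409) with the replicate number as a block.

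Against this, the autophagy genes differed little between the conditions. Of 41 autophagy genes, edgeR called 0, where a call needed a fold change over 1.5 and an adjusted p under 0.05 (0% of all 12516 genes), and 0 were at an unadjusted p under 0.05 (0.807% of all genes). DESeq2 and limma on log2 FPKM also called 0 of them, and had 0 at an unadjusted p under 0.05. The median log2 difference of activated over control was -0.05, beside -0.00396 over all genes tested, and 38 of 41 lay within 0.15 of 0 (76.3% of all genes). With 1 library left out that median ranged from -0.06 to 0.014, so its sign depended on single libraries. With the replicate block 0 were called as well (0.152% of all genes), and 3 had an unadjusted p under 0.05 (10.4% of all genes). Those were *Map1lc3a*, *Wipi1* and *Bnip3*, each with an adjusted p over 0.2. In replicates 1 and 2 alone, edgeR called 0 autophagy genes (68 of all 12480 genes), and 7 had an unadjusted p under 0.05. The same 3 genes had an adjusted p under 0.05 there, and 2 of them, without *Map1lc3a*, when the block was added. The shares of all genes at these thresholds without the fold change are not given here, so these counts cannot be set against them. Activated and control libraries did not overlap for 2 autophagy genes, both higher in activated cells (5.43% of all genes did not overlap).

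The largest split among the libraries was not by condition. The first principal component held 80.1% of the variance and set replicate 3 of both conditions apart from replicates 1 and 2. The labels do not say what distinguishes replicate 3, and its part in the results was not tested beyond the comparisons given here. Since this split was chosen with results of these libraries known, its p-values describe these 6 libraries only. Replicate 3 against replicates 1 and 2, with the condition as a further term, gave an adjusted p under 0.05 for 25 of 41 autophagy genes, 16 higher and 9 lower (68.6% of all genes). With the fold change over 1.5 as well, 6 were called (31.1% of all genes), 4 of them higher (15.7% of all genes) and 2 lower (15.4% of all genes). The median absolute log2 difference was 0.23 for the autophagy genes and 0.38 for all genes. The replicate 3 libraries lay outside the range of the other 4 for 28 autophagy genes (72.1% of all genes).

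**Figure D1:**
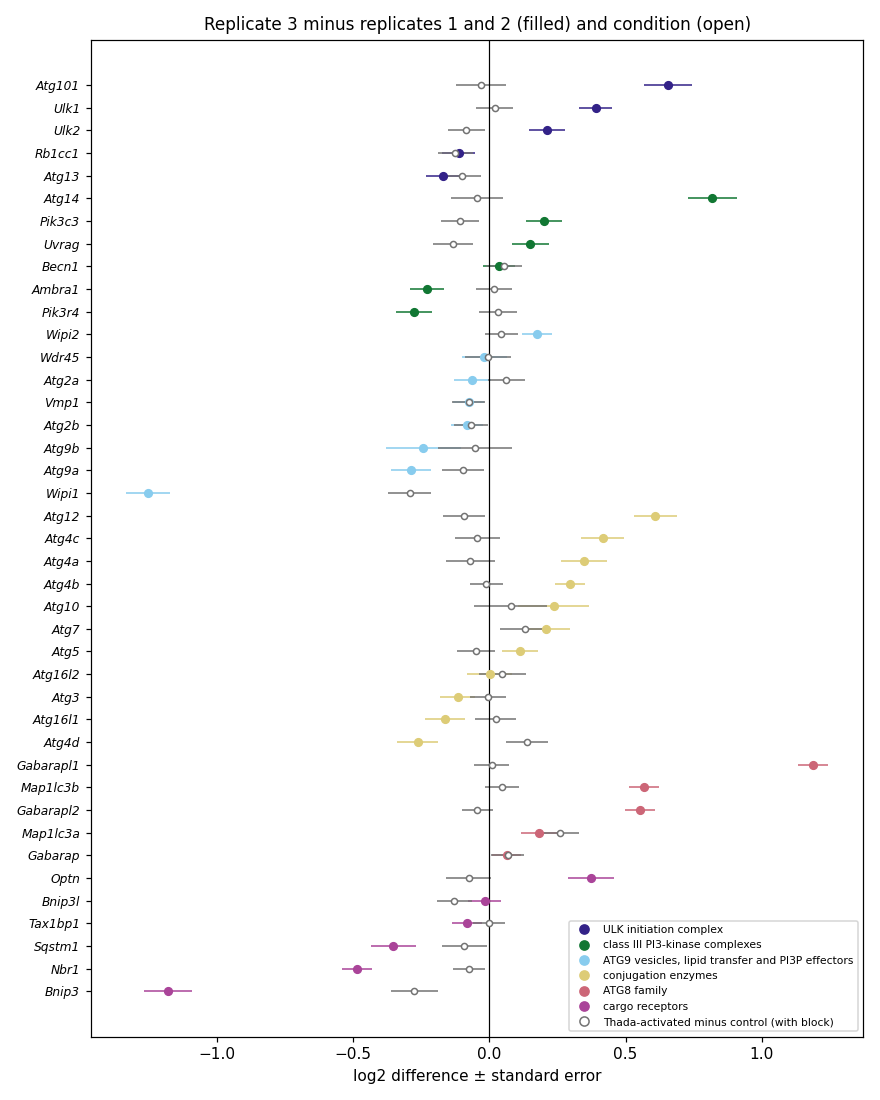
Log2 differences with their standard errors for the 41 autophagy genes, grouped by role: filled points give replicate 3 minus replicates 1 and 2 (6 libraries, condition as a term), open points *Thada*-activated minus control with the replicate number as a block. *Gabarapl1* is farthest to the right at 1.19 and *Wipi1* farthest to the left at -1.25, while every open point lies between -0.29 and 0.26.

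In the ULK initiation complex, 4 of 5 genes had an adjusted p under 0.05 for replicate 3, 3 higher and 1 lower (68.6% of all genes). *Atg101*, which encodes a stabilising partner of ATG13, was at 16.2, 14.6 and 25.3 CPM across the controls and 16.02, 15.5 and 24.04 CPM across the activated libraries. Both replicate 3 libraries were above the other 4, and the conditions overlapped. The difference for replicate 3 was 0.66 (SE 0.09, adjusted p = 1.05e-05) in edgeR, and between conditions -0.04 (SE 0.28, adjusted p = 1). The gene lies at chr15:101284301-101290947 in RefSeq on GRCm38.p6, and the other genes called for replicate 3 at chr14:47540893-47568434 (*Atg14*), chr11:109573521-109611389 (*Wipi1*), chr18:46732417-46741724 (*Atg12*), chr6:129533192-129542331 (*Gabarapl1*) and chr7:138890836-138909506 (*Bnip3*). Without control replicate 3 the difference of *Atg101* was 0.58, just under the fold change used, and the call was lost. *Rb1cc1*, which encodes the scaffold FIP200, was at 71.7, 77.4 and 69.2 CPM across the controls and 68.7, 70.1 and 64.6 CPM across the activated libraries. Its libraries lay close together, the conditions overlapped, and the difference between conditions was -0.12 (SE 0.10, adjusted p = 1), within 1 SE of that of *Atg13* at -0.09. The remaining genes of the complex, *Ulk1*, *Ulk2* and *Atg13*, differed by 0.39, 0.21 and -0.17 for replicate 3 on the log2 scale, each with an adjusted p under 0.05.

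In the class III PI3-kinase complexes, 4 of 6 genes had an adjusted p under 0.05 for replicate 3, 2 higher and 2 lower (68.6% of all genes). *Atg14*, whose product directs the kinase to autophagosome formation, was at 12.9, 15.5 and 25.3 CPM across the controls and 14.5, 13.6 and 24.8 CPM across the activated libraries. Both replicate 3 libraries were above the other 4, which lay between 12.9 and 15.5 CPM. For replicate 3 it differed by 0.82 (SE 0.09, adjusted p = 1.7e-06), and between conditions by -0.05 (SE 0.34, adjusted p = 1). *Uvrag*, whose product takes the place of ATG14 in the endosomal form of the complex, was at 47.6, 50.4 and 57.7 CPM across the controls and 47.7, 46.5 and 49.8 CPM across the activated libraries. Its conditions overlapped, and the difference between them was -0.14 (SE 0.11, adjusted p = 1), within 1 SE of that of *Pik3c3* at -0.10. *Becn1*, *Pik3c3*, *Pik3r4* and *Ambra1* had differences for replicate 3 from -0.28 to 0.20 on the log2 scale.

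Among the 8 genes of ATG9 vesicles, lipid transfer and PI3P binding, 3 had an adjusted p under 0.05 for replicate 3 (68.6% of all genes), and *Wipi1* stood apart. *Wipi1*, whose product binds PI3P on the forming membrane, was at 369.9, 349.9 and 131 CPM across the controls and 270.0, 273 and 133 CPM across the activated libraries. Both replicate 3 libraries were below the other 4. In replicates 1 and 2 both activated libraries were also below both control libraries, whereas in replicate 3 the conditions lay together. Replicate 3 differed by -1.25 (SE 0.08, adjusted p = 1.58e-08), or -1.44 in control and -1.06 in activated libraries taken separately. Between conditions it was -0.35 (SE 0.47, adjusted p = 1), and with the block -0.29 (SE 0.08, adjusted p = 0.218). In replicates 1 and 2 alone it was -0.41 (SE 0.05, adjusted p = 6.33e-09 in edgeR), which is short of the fold change used. *Wipi2*, its paralog, differed by 0.18 for replicate 3, and *Atg9a*, which encodes the lipid scramblase of the vesicles, by -0.29. The other 5 genes did not pass an adjusted p of 0.05, and *Atg9b* was the least abundant autophagy gene per length at 2.94 ± 0.447 FPKM (SD, n = 6).

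Of the 11 conjugation enzymes, 6 had an adjusted p under 0.05 for replicate 3, 5 higher and 1 lower (68.6% of all genes). *Atg12*, which encodes the ubiquitin-like protein joined to ATG5, was at 31.6, 30.9 and 49.9 CPM across the controls and 33.3, 28.2 and 45.2 CPM across the activated libraries. Both replicate 3 libraries were above the other 4, and the conditions overlapped. For replicate 3 its difference was 0.61 (SE 0.08, adjusted p = 7.21e-06). This call was lost without control replicate 2 (0.58), control replicate 3 (0.53) or activated replicate 2 (0.57), and by limma on log2(FPKM + 1) (0.58), since the fold then fell below 1.5. *Atg4d*, a protease that processes ATG8 proteins, was at 46.03, 44.4 and 34.3 CPM across the controls and 45.7, 49.2 and 43.8 CPM across the activated libraries. Between conditions it differed by 0.13 (SE 0.14, adjusted p = 1), as much as *Atg7* at 0.13 (SE 0.13, adjusted p = 1), and without control replicate 3 by 0.0143. The difference of *Atg4d* for replicate 3 was -0.26 (SE 0.08, adjusted p = 0.00657). That sign turned to positive on log2 FPKM. The related protease genes *Atg4a*, *Atg4b* and *Atg4c* differed by 0.35, 0.30 and 0.42 for replicate 3.

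The ATG8 family held the most abundant autophagy gene per length, and all 5 of its genes had a positive difference for replicate 3 (6266 of all 12516 genes), of which 4 had an adjusted p under 0.05 (4290 of all 12516 genes were higher with one). *Gabarapl1* was at 114, 122 and 282 CPM across the controls and 126, 123 and 273 CPM across the activated libraries. Replicate 3 was higher in both conditions, and the 4 other libraries lay between 114 and 126 CPM. It differed for replicate 3 by 1.19 (SE 0.06, adjusted p = 5.6e-10), and between conditions by -0.02 (SE 0.48, adjusted p = 1). *Gabarapl2* was at 215, 203 and 308 CPM across the controls and 212, 200.2 and 304 CPM across the activated libraries. Replicate 3 again lay above the other 4 libraries, with a difference of 0.55 (SE 0.05, adjusted p = 5.83e-07), just under the fold change used. *Map1lc3b*, chosen after its values were seen, differed by 0.57 (SE 0.05, adjusted p = 4.46e-07) for replicate 3, and a protein-coding gene, *Gm20388*, overlaps it on the same strand.

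*Map1lc3a*, which encodes a form of LC3, was at 52.9, 46.5 and 53.8 CPM across the controls and 57.99, 58.6 and 70.02 CPM across the activated libraries. Every activated library was above every control library (p = 0.1 by the exact test). The difference between conditions was 0.26 (SE 0.12, adjusted p = 1), with the block 0.26 (SE 0.07, adjusted p = 0.22), and in replicates 1 and 2 alone 0.22 (SE 0.07, adjusted p = 0.0482 in edgeR). With the block there it was 0.22 (adjusted p = 0.0627). *Gabarap* was at 382, 361 and 393 CPM across the controls and 400.3, 395 and 415 CPM across the activated libraries. Every activated library was above every control library here too (p = 0.1 by the exact test), and the difference was 0.07 (SE 0.11, adjusted p = 1). Per length, *Gabarap* was at 404 ± 14.6 FPKM (SD, n = 6) and *Gabarapl2* at 291 ± 59.8 FPKM (SD, n = 6).

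**Figure D2:**
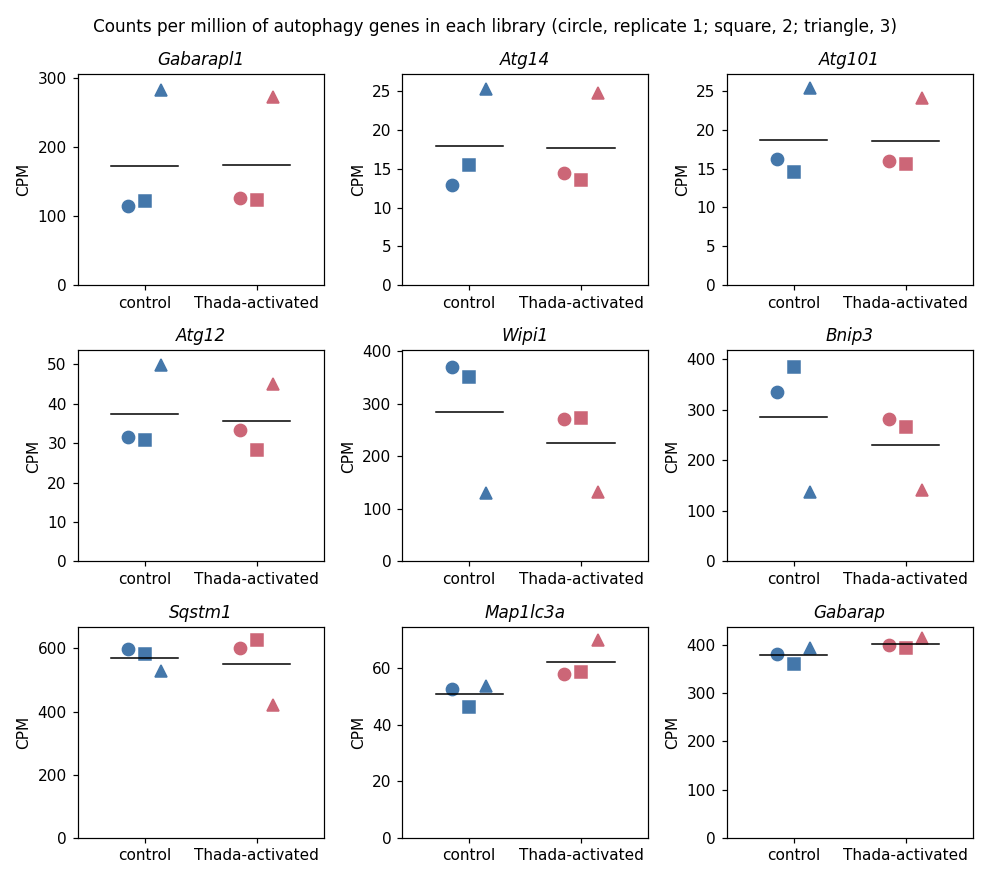
CPM of 9 autophagy genes in each library, with the y axis from 0: control libraries on the left and *Thada*-activated libraries on the right, circles for replicate 1, squares for 2, triangles for 3 and a line for the mean of the 3. The triangles of *Gabarapl1* are at 282 and 273 CPM, above every circle and square, and those of *Wipi1* and *Bnip3* are below every circle and square.

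The cargo receptors had 4 of 6 genes with an adjusted p under 0.05 for replicate 3, 1 higher and 3 lower (68.6% of all genes). *Bnip3*, which encodes a receptor of mitophagy, was at 336, 385 and 137 CPM across the controls and 282, 266 and 142 CPM across the activated libraries. Both replicate 3 libraries were below the other 4. In replicates 1 and 2 both activated libraries were below both control libraries, and in replicate 3 the conditions lay together. Replicate 3 gave a difference of -1.18 (SE 0.09, adjusted p = 1.39e-07), or -1.37 in control and -0.98 in activated libraries taken separately. Between conditions it was -0.33 (SE 0.45, adjusted p = 1), and with the block -0.27 (SE 0.09, adjusted p = 0.291). In replicates 1 and 2 alone it was -0.40 (SE 0.05, adjusted p = 6.58e-07 in edgeR). *Sqstm1*, which encodes p62, the receptor of ubiquitinated cargo, was at 597, 582 and 528 CPM across the controls and 602, 626 and 422 CPM across the activated libraries. Activated replicate 3 was the lowest library, and the conditions overlapped. Its difference for replicate 3 was -0.35 (SE 0.08, adjusted p = 0.00186), or -0.14 in control and -0.57 in activated libraries taken separately. Per length *Sqstm1* came after *Gabarap*, at 300.2 ± 41.5 FPKM (SD, n = 6), followed by *Gabarapl2*, whose spread overlaps that of *Sqstm1*. Next were *Bnip3* at 161 ± 63.9 FPKM (SD, n = 6) and *Wipi1* at 153 ± 62.6 FPKM (SD, n = 6), which overlap each other. In replicate 3 of control and activated cells the order differed: *Gabarapl2*, at 377 and 357 FPKM, was above *Sqstm1* at 284 and 223 FPKM, and *Gabarapl1* at 175 and 166 FPKM and *Map1lc3b* at 132 and 129 FPKM were above *Bnip3* at 86.1 and 87.1 FPKM and *Wipi1* at 79.04 and 78.7 FPKM. *Nbr1*, a further receptor chosen after its values were seen, differed by -0.49 (SE 0.06, adjusted p = 2.44e-06) for replicate 3, and *Optn* by 0.37.

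The difference for replicate 3 was compared between the conditions by an interaction term, which leaves 2 residual degrees of freedom, so its error comes from replicates 1 and 2, and it compares 2 single replicate 3 libraries. Of the autophagy genes, 0 were called by edgeR at the fold change over 1.5 (1.81% of all genes), 8 were at an unadjusted p under 0.05 (21.1% of all genes), and 4 had an adjusted p under 0.05 (6.96% of all genes). DESeq2 called 0 (42 of all 12516 genes), and fewer autophagy genes had an adjusted p under 0.05 there than in edgeR. The 4 in edgeR were *Sqstm1*, *Bnip3*, *Wipi1* and *Atg9a*.

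RefSeq promoters (GRCm38.p6, from 250 bases before to 50 after the start) matched 34 of the 41 autophagy genes. *Atg12*, *Atg16l1*, *Becn1*, *Bnip3l*, *Map1lc3a*, *Pik3c3* and *Rb1cc1* were not matched. Motifs were searched on both strands. The E-box CACGTG was in 5 of 34 (14.7%; 11.8% of tested genes with a promoter and 7.15% of all promoters), and the core of the HIF response element, ACGTG, which overlaps the E-box, was in 16 (47.1%; 29.3% of tested genes and 19.6% of all promoters). The CLEAR inner motif TCACGTGA was in 1 (2.21% of tested genes and 0.974% of all promoters), the antioxidant response core TGACNNNGC in 5 (17.1% and 12.4%), and TGATGNAA and GTAAACA in 0 (2.69% and 3.97%, and 3.12% and 3.65%). Of the 5 called genes with a promoter, *Bnip3* and *Atg14* held CACGTG, and these and *Atg101* held ACGTG. The 250 bases before the start of the 3 genes that differed most for replicate 3 are shown 5′ to 3′ on the strand of the gene, with any of the motifs in capitals. They lie at chr6:129532942-129533191 (plus strand), chr7:138909507-138909756 (minus strand) and chr11:109611390-109611639 (minus strand).
Gabarapl1: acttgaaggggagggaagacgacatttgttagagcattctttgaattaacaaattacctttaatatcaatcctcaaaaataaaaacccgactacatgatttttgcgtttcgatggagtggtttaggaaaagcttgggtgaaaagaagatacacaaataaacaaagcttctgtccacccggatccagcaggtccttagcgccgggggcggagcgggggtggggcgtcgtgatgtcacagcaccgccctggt
Bnip3: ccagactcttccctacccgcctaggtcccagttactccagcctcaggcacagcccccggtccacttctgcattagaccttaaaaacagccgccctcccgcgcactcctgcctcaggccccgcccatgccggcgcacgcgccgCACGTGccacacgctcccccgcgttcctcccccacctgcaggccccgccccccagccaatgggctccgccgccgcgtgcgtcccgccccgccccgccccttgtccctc
Wipi1: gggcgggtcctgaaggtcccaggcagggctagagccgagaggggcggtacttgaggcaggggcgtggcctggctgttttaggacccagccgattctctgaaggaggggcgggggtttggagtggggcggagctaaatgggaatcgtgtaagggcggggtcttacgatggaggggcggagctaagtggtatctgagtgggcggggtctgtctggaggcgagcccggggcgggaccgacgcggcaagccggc
The capitals in *Bnip3* are the single CACGTG. A match is a description of these letters, and binding of a factor was not measured.

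Other genes of the pathway and its regulators are given by the number called for replicate 3, with the log2 difference of those named. Over all genes tested 31.1% were called, 15.7% higher and 15.4% lower. The median log2 difference for replicate 3 was 0.04 over the autophagy genes and 0.00105 over all genes tested. Of 32 regulators of mTORC1, AMPK and TSC, 9 were called, 5 higher and 4 lower, among them *Tsc2* (-1.42), *Prkab2* (1.22), *Tbc1d7* (-1.13) and *Sesn1* (0.84), with a median over the list of -0.03. Of 8 tested MiT/TFE and FOXO genes, 1 was called, *Foxo4* (0.97), with a median over the list of 0.17. Of 19 other genes of autophagosome formation, 3 were called, *Smcr8* (-0.82), *Wdr41* (-0.61) and *Trp53inp1* (0.60), with a median over the list of 0.07. Of 15 fusion genes, 3 were called, *Vps33a* (-0.84), *Stx17* (-0.62) and *Stx7* (0.59), with a median over the list of -0.18. Of 20 other receptors, 6 were called, 4 higher and 2 lower, among them *Stbd1* (2.09), *Fundc1* (1.18) and *Wdfy3* (-1.05), with a median over the list of 0.19. Of 22 lysosome genes, 4 were called, all lower, among them *Atp6v0d1* (-0.72), *Ctsa* (-0.67) and *Gla* (-0.66), with a median over the list of -0.18. Of 16 HIF target genes, 10 were called, 8 of them lower, among them *Ldha* (-2.35), *Egln3* (1.45), *Slc2a1* (-1.24) and *Adm* (1.16), with a median over the list of -0.57. Of 11 NRF2 target genes, 6 were called, 2 higher and 4 lower, among them *Gsta4* (2.21), *Slc7a11* (-1.73), *Gclc* (-1.24) and *Hmox1* (-0.75), with a median over the list of -0.31. Of 18 ATF4 and CHOP genes, 5 were called, 2 higher and 3 lower, among them *Ddit3* (1.97), *Slc7a11* (-1.73), *Atf5* (-1.28) and *Chac1* (-1.03), with a median over the list of 0.04. Between conditions edgeR called 0 genes of these lists, with or without the block, and DESeq2 called 0 without it. Without the block 1 of the 158 tested genes of the lists was at an unadjusted p under 0.05 (0.807% of all genes), and with it 27 were (10.4% of all genes). Of the ATF4 and CHOP genes, 10 of 18 were among these, 17 of 18 had a negative difference between conditions (51.3% of all genes), and for 5 the conditions did not overlap, all lower in activated cells (1.79% of all genes). The interaction term had an adjusted p under 0.05 for 9 of them, all negative (3.26% of all genes), with 1 replicate 3 library in each condition. Negative differences between conditions were also found for 14 of 16 HIF target genes and 18 of 22 lysosome genes. With the block *Nqo1* of the NRF2 list had an adjusted p of 0.0103 at a log2 difference of 0.57, short of the fold change used.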

How the data were processed

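RNA of 6 MIN6 libraries was sequenced on BGISEQ-500. The authors deposited an estimated count (expected count) of each gene in each library, not normalized, and FPKM values that scale reads by gene length and library size. The submitters' processing notes name Bowtie2, RSEM, DESeq2 and GRCm38, with no versions. Columns of the authors' own comparison (log2 fold change, p and q) were not used, nor were 12 further per-sample columns of the series table. The remainder of 1 line broken inside a text cell was skipped.

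Counts were rounded to whole numbers, filtered by filterByExpr, normalized by TMM and tested in edgeR 4.0.16 (R 4.3.3) with its quasi-likelihood F test in robust form, with Benjamini-Hochberg adjustment over all 12516 genes. The standard error was the absolute log2 difference divided by the square root of F. Alternatives used DESeq2 1.42.0 and limma 3.58.1 on log2(FPKM + 1) and log2(FPKM + 0.1). The procedure was also run on simulated data, and the outcome of that run is not given here. CPM was computed on all counts of a library. Differences within a condition used normalized CPM with 0.5 added.

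The members and lists were chosen with earlier results of these data known. Named genes were *Thada*, those called, the gene of each role with the largest difference in either comparison and the 5 highest by FPKM. Control and activated replicate 3 deviated together (correlation across genes 0.869), while control 1 with activated 2 and control 2 with activated 1 (0.705 and 0.726) correlated more than replicates 1 and 2 by number (0.667 and 0.671), so only replicate 3 supports the pairing by number. Whether counting used strand is not given in the sources used here, and 18 of the 41 genes overlap a gene on the opposite strand in GENCODE M21, among them *Gabarapl1*, *Bnip3*, *Atg14*, *Sqstm1*, *Atg9a* and *Atg4d*. A gene on the same strand overlaps 9 of the 41, among them *Gabarapl1*, *Map1lc3b* and *Atg9a*. Protein sequences were not analysed here. Some genes of the lists are not reported here.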

Additional observations from a re-analysis of the deposited data

Results flagged for a closer look

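The interaction term of edgeR, the difference for replicate 3 in activated minus that in control libraries, had an adjusted p under 0.05 for 4 of 41 autophagy genes (6.96% of all genes). With 1 replicate 3 library in each condition, its error comes from replicates 1 and 2, which differed far less from each other (chi-squared per degree of freedom 4.43 in control and 1.83 in activated libraries) than from replicate 3 (94.6 to 134). These p-values therefore cannot tell a difference between the conditions from one between 2 single libraries. The term was -0.43 (SE 0.08, adjusted p = 0.000432) for *Sqstm1*, since replicate 3 was lower by more in activated libraries. It was -0.33 (SE 0.10, adjusted p = 0.0293) for *Atg9a*, also lower by more in activated libraries. *Atg9a* was at 109, 103 and 96.1 CPM across the controls and 106, 109 and 79.9 CPM across the activated libraries. The interaction term was 0.39 (SE 0.09, adjusted p = 0.00423) for *Wipi1* and 0.40 (SE 0.10, adjusted p = 0.00622) for *Bnip3*, since replicate 3 was lower by less in activated libraries. For *Thada* it was 0.52 (SE 0.13, adjusted p = 0.00935). Adjusted p ranged over the alternatives from 2.84e-09 to 0.0354 for *Sqstm1*, 0.000736 to 0.326 for *Atg9a*, 1.99e-06 to 0.0789 for *Wipi1*, 2.2e-08 to 0.108 for *Bnip3* and 0.00146 to 0.0636 for *Thada*, where DESeq2 gave none. Only *Sqstm1* was under 0.05 in all 9 alternatives. What sets these 2 libraries apart was not tested.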

How the results depend on the processing

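The count of 0 autophagy genes called between conditions held under each alternative, the replicate block included (0), and the replicate block changed no call of an autophagy gene, though it brought *Thada* past the threshold. For replicate 3, 4 to 7 genes were called when 1 library was left out, 25 with no fold threshold, and 5 or 6 under the other alternatives. The interaction gave 4 genes with no fold threshold, and 0 to 1 when 1 library was left out (*Atg9b*, without control replicate 1). Without a replicate 3 library that term could not be fitted. Of all 12516 genes, 2835 were called for replicate 3 by limma with 1 added, 3804 with 0.1 added and 3709 by DESeq2. With 1 library of replicate 1 or 2 left out, 3940 to 4041 of 12719 to 12736 genes were called.

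The median difference between conditions was -0.0603 to 0.0143 with 1 library left out, -0.0188 and -0.0199 by limma with 1 and 0.1 added, -0.00711 in replicates 1 and 2 alone and -0.00713 there with the replicate block. For replicate 3 it was 0.018 to 0.0953 with 1 library left out.

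Differences between conditions near 0 changed sign. With 1 library left out they ranged from -0.26 to 0.25 for *Atg101*, -0.30 to 0.16 for *Atg12*, -0.37 to 0.29 for *Atg14*, -0.49 to 0.53 for *Gabarapl1*, -0.25 to 0.17 for *Gabarapl2* and -0.18 to 0.0958 for *Sqstm1*. The largest differences, of *Wipi1* and *Bnip3*, kept their sign but ranged from -0.69 to -0.0733 and -0.66 to -0.0648. In replicates 1 and 2 alone, and there with the replicate block, *Atg101* was 0.0274 and 0.0278, *Gabarapl1* 0.0677 and 0.068, and *Sqstm1* 0.0506 and 0.0505. *Gabarapl1* was 0.0204 and 0.0209 by limma with 1 and 0.1 added, 0.00896 with the replicate block, 0.00901 with the block in DESeq2 and 0.00831 with the block without pair 2, where *Atg14* was 0.022. For replicate 3, *Atg4d* was 0.0184 and 0.019 by limma with 1 and 0.1 added. The cause was not tested. Fits that joined the block with another choice, and some further alternatives for medians and single genes, were chosen after seeing the data.

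Each condition is 1 line, 3 libraries against 3 cannot reach an exact p under 0.1, and differences under the spread of replicates 1 to 3 could not be detected without the block.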
